A study of Urocitellus parryii with 3 samples.

Results

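mmu-miR-500, mmu-miR-532-5p and mmu-miR-532-3p are mature microRNAs (miRNAs) of a cluster that lies in introns of the mouse gene Clcn5. Their signal was followed over 3 stages of the yearly cycle of a hibernator, the arctic ground squirrel (Urocitellus parryii), in liver. The members were the array entries with exactly these names, 3 of 577 entries, read by 8 probes and 60 spots on each array. They were picked with the spot intensities and background flags of these same arrays known, so their stage differences are given as a description, without a test.

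The groups were liver RNA of animals in early arousal, in late torpor (written late topor in the labels) and after reproduction. Total RNA of animals of the same stage was mixed in equal amounts into 1 pool per stage, and 100 ng of each pool was labelled with the dye Cy3 and hybridised to an Agilent mouse miRNA array. The sample descriptions instead speak of RNA of 18 to 30 nt, so whether the RNA was selected by size is not settled by the labels. The number, sex and age of the animals in a pool are not given in the sources used here. All 3 arrays lay on the same slide. With 1 pool on 1 array per stage, the spread between animals could not be measured, and every error below comes from repeated spots of a single array. The probes were designed for mouse miRNAs, and their match to the squirrel sequences was not checked.

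A miRNA gene is transcribed into a hairpin, which is cut in the nucleus by Drosha and in the cytoplasm by Dicer. The resulting duplex has a 5p and a 3p arm, and an arm loaded into an Argonaute protein guides it to matching mRNAs, which are repressed. Clcn5 encodes a chloride and proton exchanger of endosomes, and miRNAs within its introns can be made from the transcript of the host gene. Clcn5 is listed as a protein-coding gene of the X chromosome in the RefSeq annotation of the arctic ground squirrel, between the coding genes Usp27x and Akap4, and the squirrel miRNA genes themselves were not located here.

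In the array's own annotation, on mouse build mm9, the 9 entries of the cluster span 10778 bases of chromosome X. The target of the miR-500 probes is at chrX:6814821-6814836, that of the miR-532-3p probes at chrX:6825545-6825559 and that of the miR-532-5p probes at chrX:6825582-6825598. miR-500 therefore lies 10724 bases from the start of the miR-532-3p target, while 22 bases separate the targets of the miR-532 arms. Between them lie the targets of miR-501-3p, miR-501-5p, miR-362-3p, miR-362-5p, miR-188-3p and miR-188-5p. In each of the 4 hairpins with both arms on the array, the 5p target had the higher coordinates.

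The scanner files gave each array 12493 spots, none of them saturated. The 672 negative control spots had a median of 1.36 in early arousal, 1.69 in late torpor and 1.21 after reproduction, in the arbitrary units of the background-subtracted processed signal. A probe was taken as detected if over 50% of its kept spots carried the scanner software's flag for being well above background. By this rule 152 mouse entries were detected in early arousal, 158 in late torpor and 143 after reproduction, and 135 were measured, that is detected with the same probe on all 3 arrays. The labelled tissue was checked by miR-122, the dominant miRNA of hepatocytes, whose brightest probe read 51255 in early arousal, 59409 in late torpor and 49887 after reproduction. The dimmest spot flagged as well above background read 10.1 in early arousal, 8.49 in late torpor and 10.7 after reproduction.

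miR-500 was dimmest in early arousal and read nearly alike in late torpor and after reproduction. Its probe for a 15-base target averaged 10.9 ± 2.25 in early arousal (SD of 10 spots), 27.9 ± 3.71 in late torpor (10 spots) and 25.6 ± 2.67 after reproduction (9 spots). Its probe for a 16-base target averaged 13.3 ± 3.12 in early arousal (10 spots), 28.6 ± 2.76 in late torpor (10 spots) and 27.6 ± 3.76 after reproduction (9 spots). Both probes thus placed early arousal lowest. Over both probes, the early arousal spots ran from 7.52 through a median of 12.2 to 19.8, the late torpor spots from 22.5 through 28.1 to 34.0, and the post-reproduction spots from 20.7 through 26.8 to 34.7. No early arousal spot reached the range of the other stages, and the ranges of late torpor and post-reproduction overlapped over most of their length. Of the early arousal spots, 15 of 20 were well above background, against 20 of 20 in late torpor and 18 of 18 after reproduction.

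**Figure D1:**
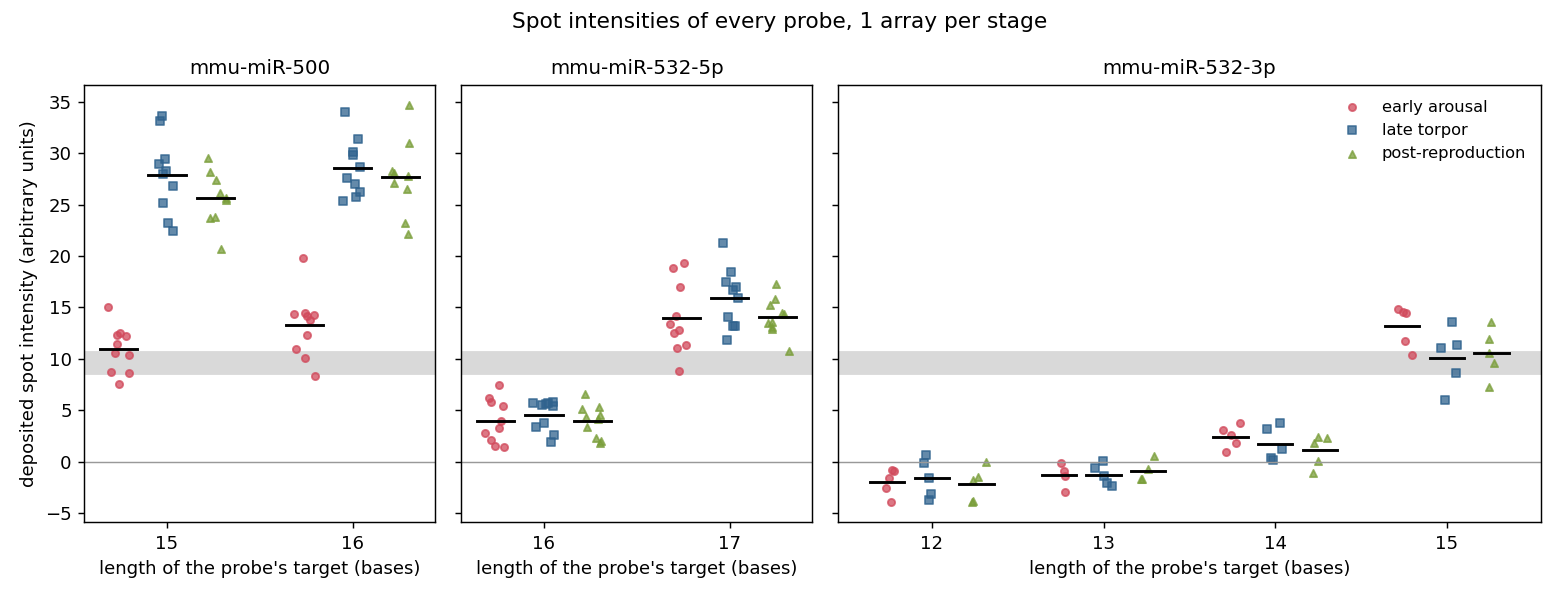
Processed signal of every kept spot (points, arbitrary intensity units on a linear axis) of each probe of the 3 members, detected or not. Early arousal, late torpor and post-reproduction are shown, with the mean as a black bar. The grey band spans, over the arrays, the dimmest spot flagged as well above background (8.49 to 10.7); miR-500 spots in early arousal (7.52 to 19.8) lie under those of both other stages, while the miR-532 spots overlap between stages.

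The scanner software's total signal per miRNA, which weights all probes of an entry, placed the stages likewise. For miR-500 it was 17.2 ± 2.39 in early arousal, 40.4 ± 3.35 in late torpor and 38.1 ± 3.46 after reproduction, where the error is the software's own. Before the fitted background was taken off, the miR-500 spots averaged 67.8 ± 2.66 in early arousal, 86.1 ± 3.91 in late torpor and 83.3 ± 3.26 after reproduction (SD over spots). The background taken off averaged 55.7 in early arousal, 57.9 in late torpor and 56.6 after reproduction. Most of the mean raw brightness of the miR-500 spots was therefore background on every array, and the ratio between stages depends on how that background is removed.

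miR-532-5p, the 5p arm of the miR-532 hairpin, read close to the detection limit at every stage and differed little between them. Its probe for a 17-base target averaged 13.9 ± 3.45 in early arousal, 15.9 ± 2.87 in late torpor and 14.1 ± 1.79 after reproduction (SD of 10 spots each). The spots ran from 8.84 through a median of 13.1 to 19.4 in early arousal, from 11.8 through 16.3 to 21.3 in late torpor and from 10.7 through 13.95 to 17.3 after reproduction, so all stages overlapped. Well above background were 9 of these spots in early arousal, 10 in late torpor and 10 after reproduction. The probe for a 16-base target averaged 4.001 in early arousal, 4.533 in late torpor and 3.954 after reproduction, with no spot well above background on any array. The values of miR-532-5p below therefore rest on a single probe.

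miR-532-3p, the other arm, was at the limit itself. Its probe for a 15-base target averaged 13.2 ± 2.01 in early arousal, 10.1 ± 2.88 in late torpor and 10.6 ± 2.38 after reproduction (SD of 5 spots each). Well above background were 5 of the 5 spots in early arousal, 4 in late torpor and 2 after reproduction, so it counted as detected in early arousal and in late torpor but not after reproduction. The probes for targets of 12, 13 and 14 bases averaged between -2.21 and 2.45, with no spot well above background. The scanner software, which asks less of an entry, marked miR-532-3p as detected on all 3 arrays, with totals of 4.38 ± 1.52 in early arousal, 3.23 ± 1.27 in late torpor and 3.09 ± 1.57 after reproduction. These totals overlapped within their errors.

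Stage differences were taken between means of log2 spot intensities, after each array was divided by the 75th percentile of the 250 probes that all 3 arrays detected (350.4 in early arousal, 349 in late torpor, 398 after reproduction). A difference was called where it was at least 2-fold, exceeded 2 standard errors from spots and had the same sign in each measured probe. With 1 pool per stage no p-value is possible. As the pools are of whole liver, fewer cells of a type and less RNA per cell cannot be told apart.

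In early arousal against late torpor, miR-500 was 2.39-fold lower, with a 95% interval from spots of 2.14 to 2.67. The log2 difference was -1.26 ± 0.08 (SE), made of -1.37 in the 15-base probe and -1.14 in the 16-base probe, and only miR-144, at -1.30, was lower among the 135 measured miRNAs. It was the 1 member called of the 2 measured; 1.48% of all measured miRNAs (2 of 135) were called lower and 1.48% (2) higher. miR-532-5p differed by -0.21 ± 0.14, with an interval of -0.49 to 0.06 that includes 0. miR-532-3p differed by 0.41 ± 0.23 over the probe detected on both arrays, with an interval of -0.03 to 0.86. The median of the 2 measured members was -0.74, beside -0.09 over all 135. The miR-500 call ended under another background removal: with a normexp model of the raw mean and background signals the difference was -0.83, and -0.30 once an offset of 50 was added, where it ranked 3 and 9 from the lowest of 135.

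In early arousal against post-reproduction, miR-500 was 1.98-fold lower, with an interval of 1.76 to 2.21. The log2 difference was -0.98 ± 0.08, from -1.06 in the 15-base probe and -0.90 in the 16-base probe, just short of the 2-fold rule. It was again the second lowest of the 135, after miR-378 at -1.08. None of the 2 measured members was called, while 3.7% of all measured miRNAs were, 0.741% (1) lower and 2.96% (4) higher. miR-532-5p differed by 0.14 ± 0.13, with an interval of -0.11 to 0.39, and its sign turned under 4 of 13 other settings. The members' median was -0.42, beside 0.06 over all. miR-500 passed 2-fold under 7 of 13 other ways of processing the arrays, -1.35 being the lowest value, and read -0.13 under normexp with the offset of 50, ranking 21 from the lowest.

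In late torpor against post-reproduction the members moved little. miR-500 was 1.21-fold higher, with an interval of 1.12 to 1.31 and a log2 difference of 0.28 ± 0.06. miR-532-5p was 1.28-fold higher, with a log2 difference of 0.35 ± 0.10 and an interval of 0.16 to 0.55. Neither of the 2 was called, while 2.22% (3) of all measured miRNAs were, all of them higher. The members' median was 0.32, beside 0.13 over all. Other scalings turned the sign of the miR-500 value (-0.12 with the 75th percentile over all probes and no floor, -0.03 with the software's total signals). The miR-532-5p value was -0.037 with the first of these and 0.061 with the second, so neither direction is settled here.

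**Figure D2:**
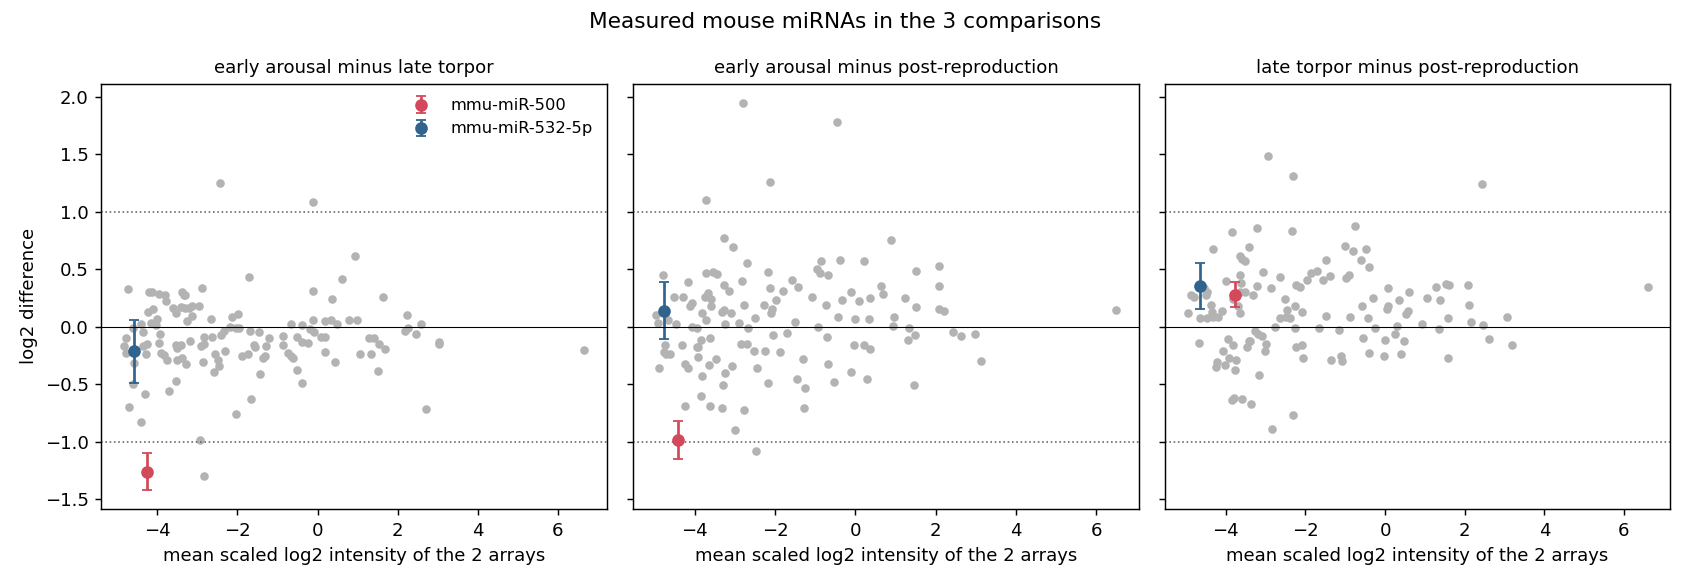
Log2 difference of each of the 135 measured miRNAs, against its mean scaled log2 intensity on the arrays compared. The panels are early arousal minus late torpor, early arousal minus post-reproduction and late torpor minus post-reproduction. miR-500 and miR-532-5p are marked, with 95% intervals from spots. With the processing shown, miR-500 is the second lowest of all in both early arousal comparisons (-1.26 and -0.98), while miR-532-5p (-0.21, 0.14 and 0.35) lies within the bulk.

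For miR-532-3p, which was not detected after reproduction, no fold against that stage is given. Its 15-base probe was set against a limit, the dimmest post-reproduction spot that was well above background. After scaling, the probe's mean was 1.39-fold that limit in early arousal and 1.04-fold in late torpor. These ratios are not least differences between stages, as the probe's post-reproduction spots ran from 7.29 to 13.6, past the limit of 10.7. Its early arousal spots, from 10.4 to 14.8, overlapped them. The first ratio was 1.07 to 1.43 under 4 other scalings of the arrays, and the second fell under 1 in all 4.

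miR-500 and miR-532-5p, which lie in introns of the same gene in mouse, gave unequal signal differences between these pools in both early arousal comparisons. miR-500 was picked with its values known and was second lowest of 135 in both, so most measured miRNAs differ from it in the same direction. The median over all 135 was -0.09 against late torpor and 0.06 against post-reproduction, beside -0.21 and 0.14 for miR-532-5p. The log2 difference of miR-500 minus that of miR-532-5p was -1.04 ± 0.16 in early arousal against late torpor (interval -1.36 to -0.73) and -1.12 ± 0.15 in early arousal against post-reproduction (-1.42 to -0.82). In late torpor against post-reproduction the gap was -0.08 ± 0.12 (-0.30 to 0.15). These gaps are differences of differences within arrays, so dividing an array by a constant cannot move them. Over the 8 other ways of processing that can move them, the gap ran from -1.15 to -0.23 in early arousal against late torpor and from -1.21 to -0.26 in early arousal against post-reproduction, smallest in size under normexp with the offset of 50. An unequal signal change does not show that either miRNA was constant.

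The other 6 cluster entries were chosen by their place in the cluster. Of these, 5 had no spot well above background on any array: miR-188-3p, miR-362-3p, miR-362-5p, miR-501-3p and miR-501-5p. Their 18 probes averaged between -3.01 and 1.22 in early arousal, between -3.13 and 1.56 in late torpor and between -1.97 and 1.44 after reproduction, close to the medians of the negative controls. The exception was miR-188-5p, whose 4 probes all read above the limit in 2 of the 3 stages.

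miR-188-5p had its highest signal where miR-500 had its lowest. Its 4 probes, for targets of only 10 to 13 bases, averaged 17.4 to 22 in early arousal, 10.9 to 11.6 in late torpor and 3.55 to 6.55 after reproduction. Well above background were 20 of 20 spots in early arousal, 20 of 20 in late torpor and 0 of 19 after reproduction, and the probe means of the 3 stages did not overlap. In early arousal against late torpor it was 1.68-fold higher (log2 difference 0.74 ± 0.06, between 0.62 and 0.97 in the 4 probes), short of the 2-fold rule. Under 8 other scalings and background corrections this difference ran from 0.12, with the normexp offset of 50, to 0.95. No post-reproduction spot of miR-188-5p reached the dimmest well-above-background value of that array, the highest being 8.44. Against that limit, the brightest miR-188-5p probe of each stage was at least 2.33-fold higher in early arousal (13-base target) and at least 1.23-fold higher in late torpor (12-base target). The other probes of each stage were dimmer and would give smaller bounds. The first of these bounds was 1.80 to 2.40 under the other scalings, and the second fell under 1 with the 75th percentile over all probes and no floor. This order of stages was not particular to the cluster. miR-709 and miR-1224, the 2 measured miRNAs called higher in early arousal against late torpor, also read highest in early arousal and lowest after reproduction.

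Set against miR-500 within the same arrays, the early arousal minus late torpor difference was higher by 2.003 ± 0.10 for miR-188-5p (interval 1.80 to 2.20) and by 1.67 ± 0.24 for miR-532-3p (1.20 to 2.14). Under 8 other scalings and background corrections the gap to miR-500 ran from 0.41 to 2.22 for miR-188-5p and from 0.34 to 1.89 for miR-532-3p, lowest with the normexp offset of 50. These gaps describe the 3 pools hybridised, and the spread between pools of a stage was not measured. As miR-500 was second lowest of the 135 measured miRNAs, its low value is part of each gap.

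**Figure D3:**
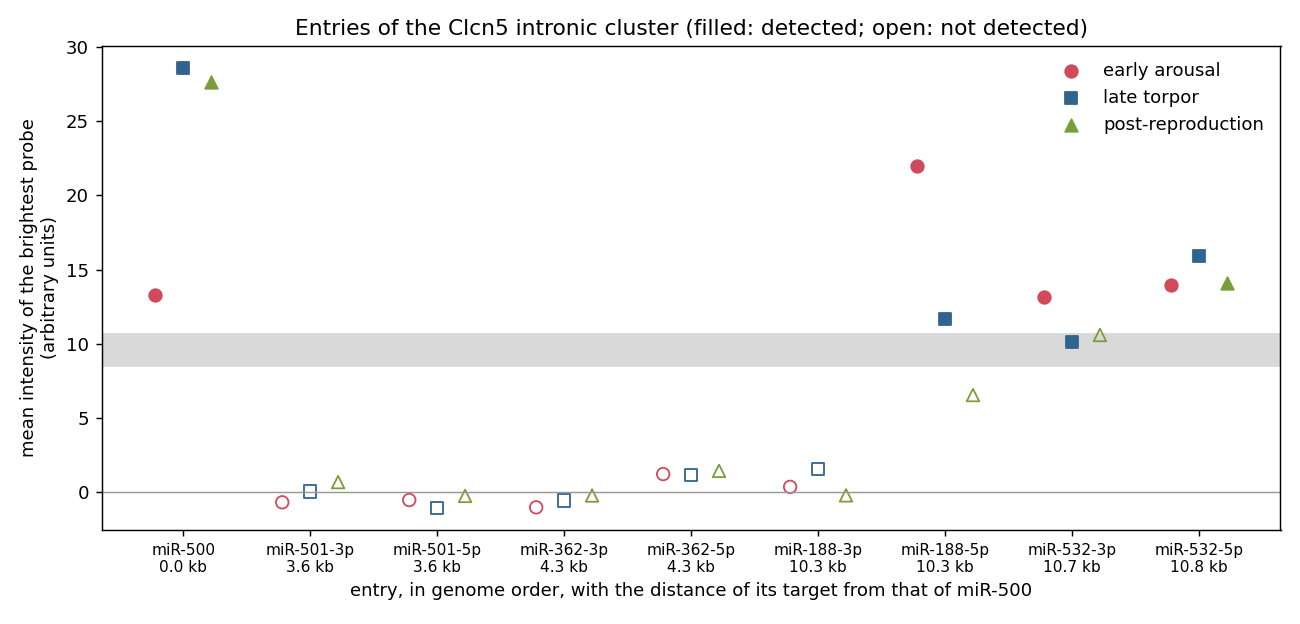
Mean intensity of each cluster entry's brightest probe in early arousal, late torpor and post-reproduction (arbitrary units, filled where the probe was detected), ordered along mouse chromosome X by distance from the miR-500 target in kilobases. In early arousal and late torpor, miR-500 and miR-188-5p stand above the grey band of detection limits (8.49 to 10.7) with opposite order, miR-188-5p lies under it after reproduction (6.55), and 5 other entries stay near 0. miR-532-5p stands above the band at every stage (13.9, 15.9 and 14.1), and miR-532-3p in early arousal alone (13.2).

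The miRNAs whose scaled values over the 3 arrays were most like those of miR-500 were found by the smallest Euclidean distance among 133 measured miRNAs outside the cluster, after each was centred on its own mean. They were miR-34a, a transcriptional target of p53, at a distance of 0.20 on the log2 scale, then miR-324-5p at 0.48, miR-150 at 0.49, miR-142-3p at 0.58 and miR-142-5p at 0.58, against a median distance of 0.94. miR-34a differed by -0.98 in early arousal against late torpor, by -0.90 in early arousal against post-reproduction and by 0.08 in late torpor against post-reproduction. The distance covers only 3 arrays, and dividing whole arrays by a constant moves all miRNAs alike and leaves it as it is.

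For miR-532-5p the nearest were miR-122 at 0.0091, miR-21 at 0.024, miR-652 at 0.035, miR-106b at 0.039 and miR-93 at 0.054, against a median of 0.28. miR-21 is a widely expressed miRNA of growth and injury responses, and miR-106b and miR-93 come from a shared cluster. These distances are smaller than the standard errors of the miR-532-5p differences themselves (0.10 to 0.14), so their order lies within the spread of the spots.

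Markers of blood cells moved with the miR-500 value in part. miR-150 and both arms of miR-142 are markers of leukocytes, and 5 of the 6 leukocyte miRNAs listed were measured, with miR-155 detected on no array. In early arousal against late torpor all 5 were lower, by log2 differences of -0.83 to -0.21. Against post-reproduction 4 were lower and 1 higher in early arousal, from -0.49 to 0.19, with all 5 lower under the 75th percentile over all probes with a floor and 2 lower under the normexp offset of 50. The summed signal of their brightest probes was 633 in early arousal, 884 in late torpor and 737 after reproduction.

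The red blood cell miRNAs miR-144, miR-451 and miR-486 were all 3 lower in early arousal than in late torpor, at -1.30, -0.71 and -0.76. They were higher in early arousal than after reproduction, at 0.18, 0.53 and 0.55, where miR-500 was lower, though miR-144 turned under 0 in 3 of the other scalings, at the lowest -0.19. Their summed signal was 2507 in early arousal, 4144 in late torpor and 1993 after reproduction. The hepatocyte list, 3 of 3 measured, differed by -0.20 to 0.06 in early arousal against late torpor. The part of blood cells in the miR-500 values was not tested.

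On the X chromosome outside the cluster, 10 miRNAs were measured. In early arousal against late torpor 6 were lower and 4 higher, with a median of -0.24 and a range of -0.49 to 0.33. Against post-reproduction 4 were lower and 6 higher in early arousal, with a median of 0.18 and a range of -0.71 to 1.10. With the reported processing, the miR-500 values of -1.26 and -0.98 lay beyond both ranges. miR-500 was picked with its values known and was second lowest of all 135 in both comparisons. The ranges were not taken under the normexp offset of 50, where miR-500 read -0.30 and -0.13.

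Probes for viral miRNAs included signals as bright as those of the members. Of the 10 viral entries on the array, the mouse herpesvirus entry mghv-miR-M1-2 was detected on all 3 arrays, at 22.2 in early arousal, 26.5 in late torpor and 26.6 after reproduction. Another, mghv-miR-M1-8, was detected in late torpor alone, at 10.02. The median of the 10 was 2.09 in early arousal, 2.56 in late torpor and 1.66 after reproduction. What these viral probes bound was not tested.

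For all 3 members the longest target gave the brightest detected probe. Among detected entries with several target lengths, the longest was the brightest in 57 of 149 (38.3%) in early arousal, 59 of 155 (38.1%) in late torpor and 53 of 140 (37.9%) after reproduction.

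**Figure D4:**
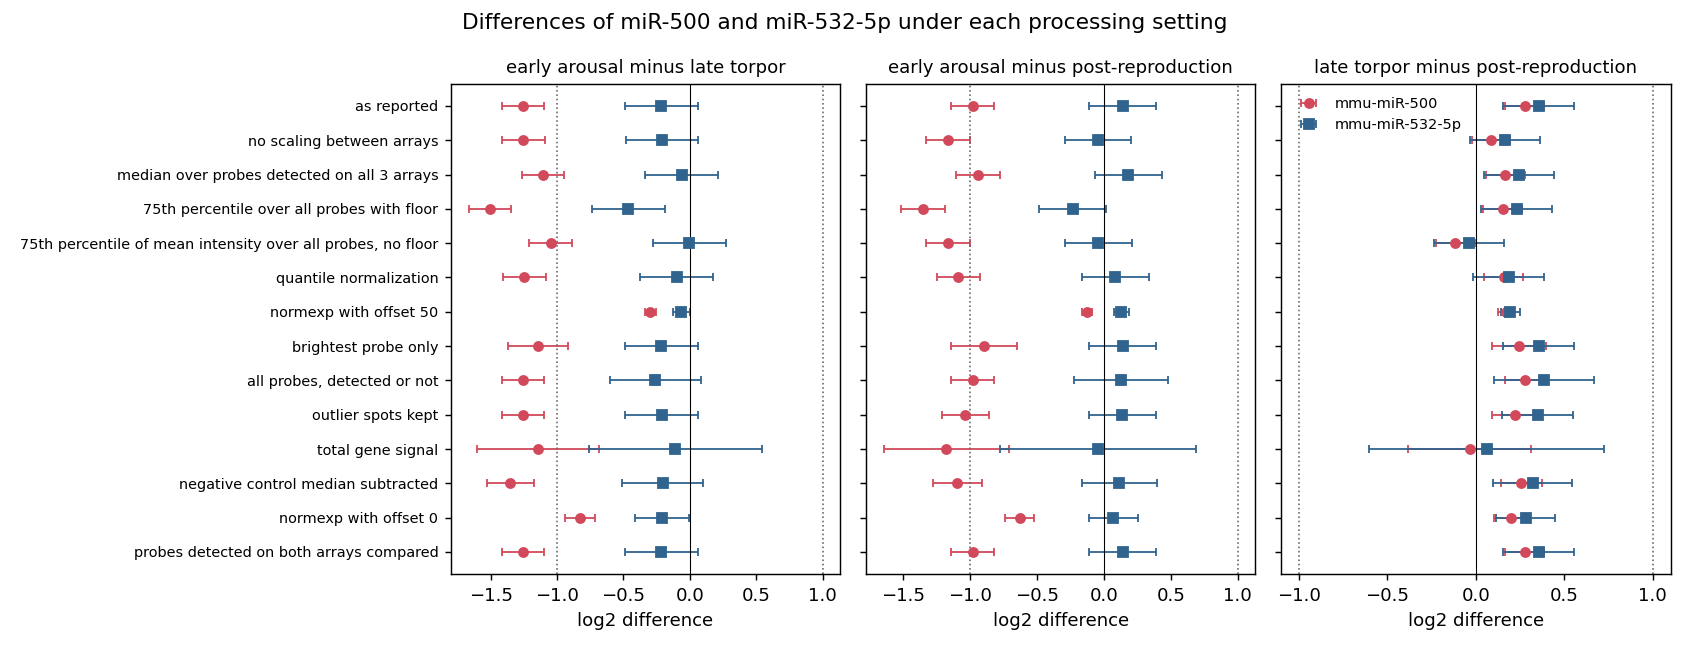
Log2 differences of miR-500 and miR-532-5p in the 3 comparisons as reported and under each of the 13 other ways of processing the arrays, with 95% intervals from spots and the 2-fold limit marked. miR-500 in early arousal minus late torpor stays under 0 throughout (-1.51 to -0.30) and past 2-fold in 11 of 13, while miR-532-5p passes 2-fold in none.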

How the data were processed

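The deposited scanner files hold 1-colour intensity values from the authors' scans, read by Agilent's Feature Extraction software (version 9.5.3.1, as the submitters' processing notes give it). Per the file headers, the processed signal has a fitted background subtracted, and it is not normalized between arrays. The yes or no flags for detection, outliers and saturation are the deposited flags of that software. The deposited series table equalled the processed signal at all 12493 spots of each array, so it gave no second set of values.

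From these, control spots and outlier spots (398 in early arousal, 280 in late torpor, 317 after reproduction) were left out, spots of a probe were averaged, and log2 means were scaled by each array's 75th percentile of intensity over the 250 probes detected on all 3 arrays. Probes of a miRNA were averaged on the difference scale. Standard errors and 95% intervals come from spots alone; with 1 array per stage, the number of arrays limits the precision and no test was run. Calculations used Python 3.11.15, pandas 2.3.3, numpy 2.4.6 and, for the normexp settings, R 4.3.3 with limma 3.58.1. The calculation was tested on simulated spots without added background, so that test does not bear on values near the detection limit.

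The text names the members, the other entries of the cluster, the 5 nearest patterns of each measured member, and markers where a result turns on them. The miRNAs at or near the end of a ranking, and the viral ones, were named after their values were seen. The members and lists were chosen with earlier results of these data known. 11 alternatives were planned and 3 added after the data were seen. Coordinates are those of the array annotation, on mouse build mm9. The sequences of the probes and miRNAs were not used here.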

Additional observations from a re-analysis of the deposited data

How the results depend on the processing

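In the 13 ways of processing that gave miR-500 a value, its early arousal minus late torpor difference ran from -1.51 to -0.30 and its early arousal minus post-reproduction difference from -1.35 to -0.13, with no change of sign; for late torpor minus post-reproduction the range was -0.12 to 0.28. Those of miR-532-5p ran from -0.46 to -0.0046, from -0.23 to 0.18 (4 of 13 with the opposite sign) and from -0.037 to 0.39 (1 of 13). The members' median in early arousal minus late torpor became -0.53 with the 75th percentile over all probes and no floor, -0.98 with a floor, -0.26 with undetected probes kept, -0.18 with a normexp offset of 50, -0.52 with an offset of 0, and -0.21 over probes detected on both arrays compared. In early arousal minus post-reproduction the median became -0.60 without and -0.79 with the floor, and 0.13 with undetected probes (3 members). It was -0.61 without scaling, 0.0011 with the offset of 50 and -0.61 from the total signals. In late torpor minus post-reproduction it became -0.076 without and 0.19 with the floor, 0.13 without scaling, 0.18 with the offset of 50, 0.17 with quantile normalization and 0.014 from the total signals. Members called numbered 0 of 2 with either normexp offset and 2 of 3 with undetected probes in early arousal minus late torpor. Those 2 went opposite ways, miR-500 at -1.26 and miR-532-3p at 1.06. Over all 135 measured miRNAs, the offset of 50 called 0, and the offset of 0 called 1 lower and 2 higher. With undetected probes 15 of 567 were called lower and 15 higher. In early arousal minus post-reproduction 1 was called without scaling, with either percentile over all probes, and with quantile normalization, outliers kept, total signals or the negative control median subtracted. Over all 135 measured (136 with outliers kept), 8 were called lower and 2 higher with the floor. The calls were 3 lower and 3 higher without the floor, without scaling or from total signals. They were 2 lower and 4 higher under the remaining settings of this list. With undetected probes kept, miR-532-3p read 1.06 in early arousal minus late torpor, where spots at or below 0 were set to array floors of 10.1 in early arousal and 8.49 in late torpor and dim spots above 0 kept their own log values. The floor moved the median of all 135 miRNAs to -0.34 in early arousal minus late torpor and -0.31 in early arousal minus post-reproduction, and the setting without it to 0.12, -0.12 and -0.26 in the 3 comparisons. The normexp offset of 0, the negative control subtraction and the probes detected on both arrays were chosen after seeing the data. Requiring every spot of a probe to be well above background gave the members no value. The causes were not tested. No paired analysis was possible because each stage has 1 array. Signals within a few units of the detection limit and 1 pool per stage set the precision.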
